A study of Homo sapiens with 4 samples.

Results

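The collagen chain genes were the 44 rows, of 56304 distinct gene rows in the count table, whose symbol is COL, a type number, A and a chain number. They were selected by name, but the family was chosen with earlier results of these data known. The samples were MV3 cells, an established and highly metastatic human melanoma line that stably expressed the nuclear reporter H2B-GFP, grown as spheroids of 50000 cells in a gel of collagen I and taken for bulk RNA sequencing on day 2. All libraries came from this line, and the labels name no treatment or other genotype. The core group (2 libraries) was the spheroid body removed with a 1 mm punch, and the invasion zone group (2 libraries) was the surrounding gel with the cells that had entered it, removed with a 3 mm punch. Because the punch cut vertically, invading cells above and below the body could remain in the core sample. The sources used here do not say how many spheroids entered a library. The p-values therefore reflect only variation between these libraries, which may be technical.

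The libraries held 11789243 to 37591782 counts, and both replicate 2 libraries were the shallower ones. Mitochondrial genes took 1.06% to 1.72% of the counts, with each core library above the invasion zone library of its replicate. Of 12 markers of melanoma and neural crest cells, 4 reached 1 CPM (CPM, a gene's share of the library scaled to 1000000 counts) in every library, namely AXL, CSPG4, MCAM and MITF, while SOX10 and TYR had 0 counts in all 4. This list, mostly AXL, summed to 682 and 711 CPM for core replicates 1 and 2 and 1297 and 1219 CPM for invasion zone replicates 1 and 2, opposite to most collagen chains. Of 6 fibroblast markers, 2 reached 1 CPM in every library, PDGFRA and FAP, and their list summed to 121 and 82.2 CPM for core replicates 1 and 2 and 49.1 and 23.7 CPM for invasion zone replicates 1 and 2, in the direction of most collagen chains. The list of endothelial markers, nearly all of it PECAM1, summed to 18, 7.68, 5.75 and 0.933 CPM in the same order. The part of these lists in the results on collagen was not tested. DCN and LUM, which encode fibroblast proteoglycans, had 0 counts in all 4 libraries. No keratinocyte or leukocyte marker reached 1 CPM in any library.

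Collagens are matrix proteins in which chains wind into a triple helix with glycine at regular spacing. Each gene encodes a single chain, and some types, but not all, are built from different chains in a set ratio. Fibrillar types I, III and V form the cross-striated fibrils of connective tissue, type IV forms the sheet of basement membranes, type VI forms beaded filaments close to the cell surface, the FACIT types decorate fibrils, and transmembrane types XIII and XVII sit in the plasma membrane.

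Collagen RNA took a smaller share of the invasion zone libraries, and most of it belonged to collagen VI and collagen I. Summed over the 44 chains it was 9215 and 6308 CPM in core replicates 1 and 2 and 4189 and 2051 CPM in invasion zone replicates 1 and 2, with CPM scaled between libraries by TMM, a trimmed mean of log ratios. The zones did not overlap, at 7762 ± 2056 CPM (SD, n = 2) against 3119.8 ± 1512 CPM, and the core exceeded the invasion zone 2.20-fold within replicate 1 and 3.08-fold within replicate 2. The exact permutation test over libraries gave p = 0.333, two-sided, which is the smallest value that 2 libraries against 2 can give. In bulk RNA, fewer cells that transcribe a gene and less of its RNA per cell cannot be told apart. Without COL6A1, the most abundant chain, the sums were 5566 and 3947 CPM for the core and 2608 and 1377 CPM for the invasion zone.

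Of the 44 chains, 23 passed a count filter (at least 10 counts at the median library size in 2 libraries, and 15 in total) and 21 did not. The zones were compared over all 15529 genes that passed, by the quasi-likelihood test of edgeR with Benjamini-Hochberg adjustment, and calls needed an adjusted p under 0.05 and at least a 2-fold change. Without a term for the replicate number this test called 0 chains and 0 of all genes (0% in either direction), and the adjusted p of the chains ranged from 0.130 to 0.991. At an unadjusted p under 0.05, 13 chains were lower and 1 (COL17A1) was higher in the invasion zone, against 12.4% and 11.9% of all genes. With the 2-fold minimum added, these were 12 and 0 chains, against 5.85% and 2.92%. With the replicate number as a block, which compares the zones within each replicate, 13 of the 23 chains fell and 0 rose by this rule, against 7.06% of all genes that fell and 3.41% that rose. Without the fold minimum the block gave 16 lower and 1 higher chain, against 19.4% of all genes in each direction. The block leaves few degrees of freedom for each gene. Its edgeR p-values therefore rest largely on a spread pooled over all genes and on how alike the 2 within-replicate ratios are. DESeq2 without the block called 9 chains lower and 0 higher, against 3.44% and 2.27% of all genes, and these 9 were all among the 13. It gave no adjusted p for 5 chains of low count. The limma voom test called 0 chains lower without the block (0% of all genes) and 12 lower and 0 higher with it, against 7.01% and 3.71% of all genes. DESeq2 with the block called 10 lower and 0 higher, against 4.83% and 2.76%, and 10 chains were called by all 3 tools with the block.

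Each invasion zone library was below each core library for 19 of the 23 chains and above both for 1, where the shares over all genes tested were 30.3% and 28.1%. At least 2-fold lower without regard to a test were 14 chains and 8.87% of all genes. The median log2 fold change was -1.14 over these chains and -0.01 over all genes tested. By class it was -1.48 for fibrillar chains, -1.31 for collagen VI, -1.02 for FACIT chains, -0.81 for basement membrane chains and 0.38 for transmembrane chains. These counts and medians are descriptions, because a chain that is high in only 1 zone can pass the filter through that zone. The count of chains called without the block rested on single libraries. It was 0 (with 125 of 14910 genes lower) without core replicate 1, 9 (with 665 of 17389 genes lower) without core replicate 2, 12 (with 1137 of 14968 genes lower) without invasion zone replicate 1 and 5 (with 347 of 17486 genes lower) without invasion zone replicate 2, in fits that give the single library left in a zone the spread of the other zone.

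**Figure D1:**
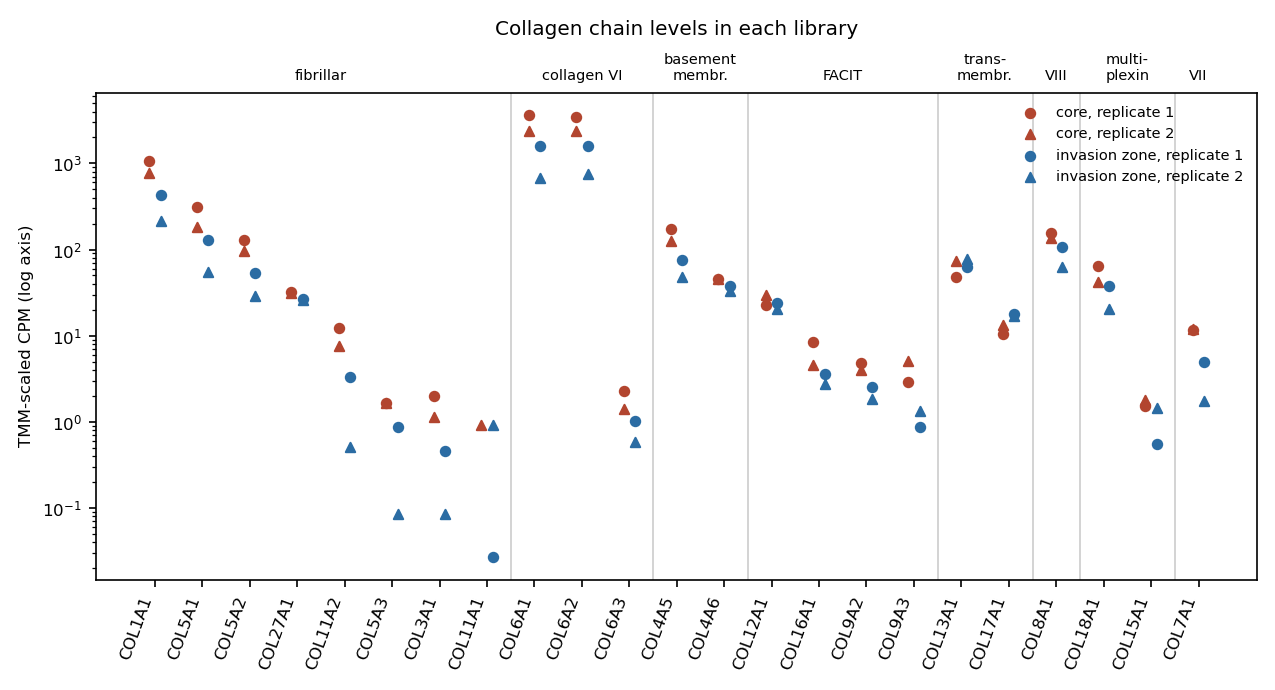
TMM-scaled CPM on a log axis for the 23 collagen chains that passed the count filter, grouped by class, with each library as 1 point (red, core; blue, invasion zone; circles, replicate 1; triangles, replicate 2). A library with 0 counts has no point, which is the case for COL11A1 in core replicate 1. The blue points lie below both red points for 19 chains, and COL17A1 is the chain whose blue points lie above both red points.

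Collagen VI gave most of the signal. Its chains took 77.1% and 74.9% of the collagen counts in core samples and 75.5% and 70% in the invasion zone. COL6A1 (chromosome 21, 45981770 to 46005050, plus strand, GRCh38), which encodes the α1 chain, was the gene of rank 18 by mean CPM in the whole table. It had 3649.5 and 2361 CPM in core replicates 1 and 2 and 1580.3 and 674 CPM in the same replicates of the invasion zone. The means were 3005 ± 911 CPM for the core and 1127 ± 641 CPM for the invasion zone (mean ± SD, n = 2 each). The edgeR fit without the block gave a log2 fold change -1.41, standard error 0.447, adjusted p = 0.158. Each library of the invasion zone was below each of the core, the log2 ratio was -1.21 within replicate 1 and -1.81 within replicate 2, and the chain fell in edgeR with the block (-1.51, standard error 0.127, adjusted p = 9.48e-05). COL6A2 (chromosome 21, 46098112 to 46132848, plus strand), the α2 chain, lies 93061 bases downstream on the same strand and had 3452 and 2359 CPM in core samples against 1581 and 760.5 CPM in invasion samples. Its libraries did not overlap between the zones, and it fell with the block (log2 fold change -1.38, standard error 0.114, adjusted p = 9.03e-05, edgeR). The ratio of COL6A1 to COL6A2 counts was 1.06 and 1.00 for the core and 1.00 and 0.887 for the invasion zone. Within each replicate the ratio was lower in the invasion zone, outside the counting intervals. These were 1.049 to 1.066 against 0.988 to 1.011 in replicate 1, and 0.986 to 1.016 against 0.861 to 0.914 in replicate 2. The 2 libraries of each zone also differed outside these intervals, and the intervals of core replicate 2 and invasion zone replicate 1 overlapped. Per kilobase of canonical transcript the ratio was 0.867 and 0.820 for the core and 0.819 and 0.727 for the invasion zone, with COL6A2 the higher in all 4 libraries.

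The remaining chain of the classical collagen VI monomer was rare. COL6A3 had 81, 21, 38 and 7 counts in core replicates 1 and 2 and invasion zone replicates 1 and 2. Per kilobase of its canonical transcript, which takes the greater length of this RNA into account, the core mean was 0.173 CPM for COL6A3 against 715 for COL6A1 and 843 for COL6A2. The counts of COL6A3 were lower in both invasion zone libraries than in the core library of the same replicate (-1.16 within replicate 1 and -1.24 within replicate 2 on the log2 scale), and the chain fell with the block (-1.18, standard error 0.390, adjusted p = 0.0411, edgeR), although DESeq2 with the block did not call it. COL6A5, an alternative partner to COL6A3, had 0 counts in every library, which allows up to 3 counts or 0.0798 to 0.254 CPM depending on the library. COL6A6, a further alternative, had 2, 0, 2 and 2 counts. The limit and the counting intervals given for ratios cover counting error only.

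Among the fibrillar chains, 8 of 11 passed the filter and 5 fell with the block, where 7.06% of all genes fell. COL1A1 (chromosome 17, 50184101 to 50201632, minus strand), which encodes the α1 chain of collagen I, had 1079.8 and 773 CPM in core samples against 434 and 216 CPM in invasion samples. The zones did not overlap, at 927 ± 217 CPM for the core and 325 ± 154 CPM for the invasion zone (mean ± SD, n = 2 each). The edgeR fit without the block gave a log2 fold change -1.51, standard error 0.370, adjusted p = 0.135. It fell with the block (-1.57, standard error 0.116, adjusted p = 6.74e-05). COL1A2 (chromosome 7, 94394895 to 94431227, plus strand), whose α2 chain joins a pair of α1 chains in ordinary collagen I, had 0, 1, 3 and 1 counts in the same order of libraries. The exons of COL1A2 overlap no other gene of the count table, by the positions of GENCODE release 44. In core replicate 1, where COL1A2 had 0 counts, COL1A1 had 38692 counts, and the exact 95% interval of their ratio began at 10488. In the other libraries, COL1A2 had 1 to 3 counts and the ratio of COL1A1 to COL1A2 was 11675 (95% interval 2095 to 461177) in core replicate 2, 5428 (1857 to 26325) in invasion zone replicate 1 and 2574 (462 to 101707) in invasion zone replicate 2.

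The main chains of collagen V, which co-assembles with collagen I and limits fibril width, moved with COL1A1. COL5A1 (chromosome 9, 134641803 to 134844843, plus strand) had 308 and 180.4 CPM in core samples against 130.1 and 54.3 CPM in invasion samples. COL5A2 (chromosome 2, 189031898 to 189225312, minus strand) had 129 and 95.6 CPM in core samples against 53.3 and 28.5 CPM in invasion samples. Neither chain had overlapping zones, and both fell with the block (edgeR log2 fold change -1.47, standard error 0.115, adjusted p = 7.71e-05 for COL5A1 and -1.49, standard error 0.121, adjusted p = 8.67e-05 for COL5A2). The COL5A1 to COL5A2 ratio of counts was 2.38 and 1.89 for the core and 2.44 and 1.91 for the invasion zone, which separated the replicates and not the zones. COL5A3, the minor chain of this type, had only 59, 25, 33 and 1 counts and did not pass with the block (adjusted p = 0.0647, edgeR). Its value in invasion zone replicate 2 was 1 count.

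The remaining fibrillar chains were low. COL11A2, a chain of the collagen XI fibrils of cartilage, had 445, 113, 125 and 6 counts and fell with the block (edgeR log2 fold change -2.36, standard error 0.353, adjusted p = 0.00103). Its log2 ratio differed between the replicates, at -1.90 within replicate 1 and -3.89 within replicate 2. COL3A1, the chain of collagen III, had 71, 17, 17 and 1 counts and fell with the block (edgeR log2 fold change -2.39, standard error 0.518, adjusted p = 0.00662). COL27A1 differed from them. It had 31.8 and 31.3 CPM in core samples against 26.9 and 25.6 CPM in invasion samples. This log2 fold change of -0.26 passed neither without nor with the block (adjusted p = 0.334 and 0.0928, edgeR), although the zones did not overlap. COL11A1 split by replicate, with 0 and 1 counts in core and invasion zone of replicate 1 but 14 and 11 in those of replicate 2, and did not pass (adjusted p = 0.991, edgeR). COL2A1 had 1, 1, 0 and 0 counts, and COL24A1 had 0, 4, 0 and 1.

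**Figure D2:**
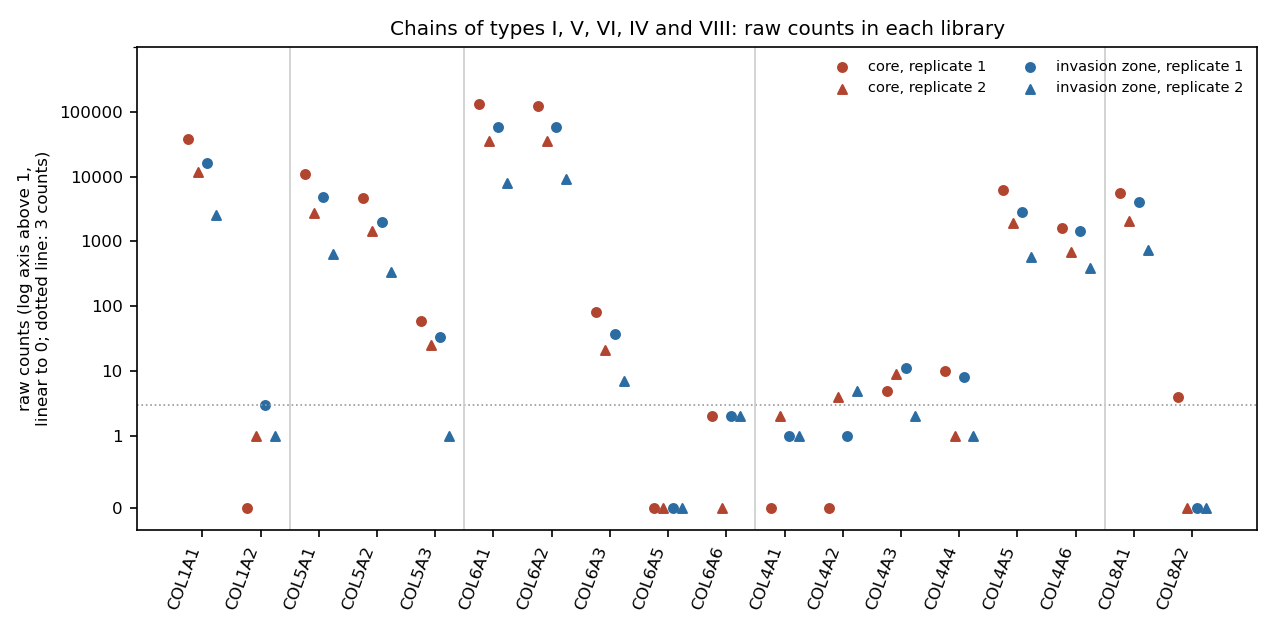
Raw counts in each library for the chains of collagen types I, V, VI, IV and VIII, on an axis that is logarithmic above 1 count and linear down to 0 (red, core; blue, invasion zone; circles, replicate 1; triangles, replicate 2). COL1A2, COL4A1, COL4A2 and COL8A2 sit at 0 to 5 counts, while COL1A1, COL4A5, COL4A6 and COL8A1 reach 395 to 38692 counts.

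The 6 basement membrane chains are encoded by pairs of genes that lie head to head and are read outward from a shared stretch of DNA. COL4A1 and COL4A2, the chains of the collagen IV found in nearly all basement membranes, had 0, 2, 1 and 1 counts (COL4A1) and 0, 4, 1 and 5 counts (COL4A2) in the 4 libraries. COL4A3 had 5, 9, 11 and 2 counts and COL4A4 had 10, 1, 8 and 1. None of these 4 chains passed the filter. The pair on chromosome X was the one that passed it. COL4A5 (chromosome X, 108439838 to 108697545, plus strand) had 171 and 126 CPM in core samples against 76.1 and 48.0 CPM in invasion samples, with the zones apart (log2 fold change -1.26, standard error 0.278, adjusted p = 0.130 in edgeR without the block), and fell with the block (-1.27, standard error 0.0907, adjusted p = 6.05e-05). COL4A6 (chromosome X, 108155607 to 108439497, minus strand) had 45.8 and 45.8 CPM in core samples against 38.0 and 33.2 CPM in invasion samples. Its zones did not overlap either, but its change was small, and with the block it passed the adjusted threshold without reaching 2-fold (edgeR log2 fold change -0.36, standard error 0.105, adjusted p = 0.0251).

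The 2 genes of the chromosome X pair did not keep a constant ratio. The ratio of COL4A6 to COL4A5 counts was 0.267 (95% counting interval 0.253 to 0.282) in core replicate 1 and 0.364 (0.334 to 0.398) in core replicate 2. It was 0.50 (0.469 to 0.533) in invasion zone replicate 1 and 0.692 (0.607 to 0.788) in invasion zone replicate 2, above both core libraries. This pair was picked for a ratio after its values were seen, and the difference was not tested.

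**Figure D3:**
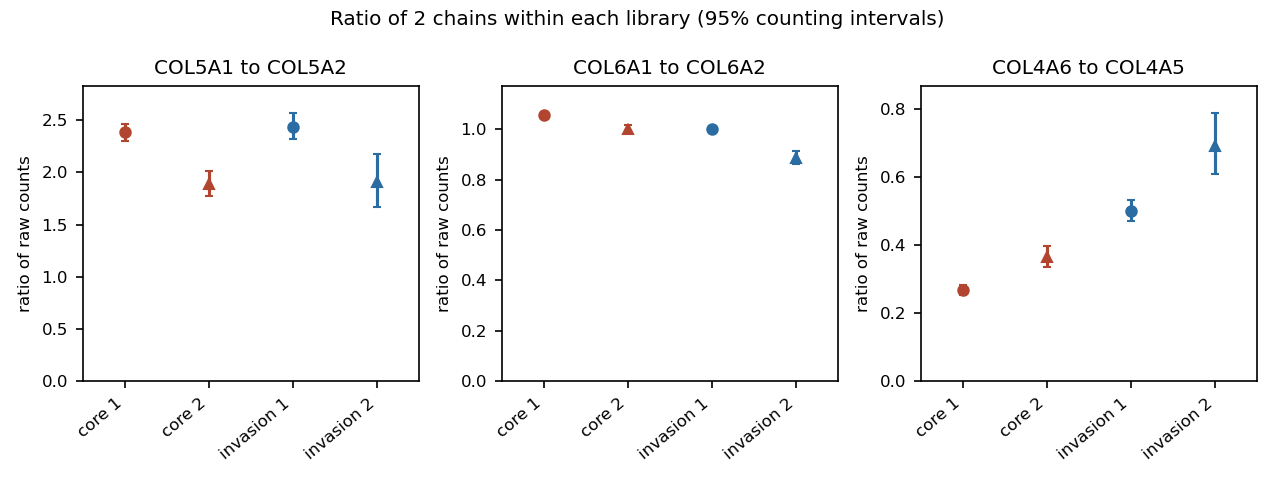
Ratio of raw counts of 2 chains within each library for COL5A1 to COL5A2, COL6A1 to COL6A2 and COL4A6 to COL4A5, on axes that start at 0, with exact 95% counting intervals as bars (red, core; blue, invasion zone; circles, replicate 1; triangles, replicate 2). The COL4A6 to COL4A5 ratio is 0.267 and 0.364 in the core and 0.50 and 0.692 in the invasion zone, whereas COL5A1 to COL5A2 separates replicate 1 (2.38 and 2.44) from replicate 2 (1.89 and 1.91).

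The sequence between the start sites shows how close the paired genes lie. The starts of COL4A5 and COL4A6 are 379 bases apart and those of COL4A1 and COL4A2 126 bases apart in the RefSeq promoter table (GRCh38.p14). The table holds another start of COL4A6, 1415 bases from that of COL4A5, and the nearer one is used here. The 250 bases upstream of COL4A5 (chrX:108439588-108439837, plus strand) and of COL4A6 (chrX:108439459-108439708, minus strand) share 121 bases, read on opposite strands, and the last stretch is the whole interval between COL4A1 and COL4A2 (chr13:110307158-110307283, plus strand). Capitals mark matches, on either strand, to the CCAAT box, to the GC box written GGGCGG, to the TATA box written TATAAA, and to the letters ACGTG found in hypoxia response elements.
COL4A5: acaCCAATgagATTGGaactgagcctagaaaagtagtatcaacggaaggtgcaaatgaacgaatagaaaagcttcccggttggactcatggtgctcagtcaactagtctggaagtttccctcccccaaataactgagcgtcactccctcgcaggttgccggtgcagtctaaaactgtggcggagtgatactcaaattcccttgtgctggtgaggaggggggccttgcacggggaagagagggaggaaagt
COL4A6: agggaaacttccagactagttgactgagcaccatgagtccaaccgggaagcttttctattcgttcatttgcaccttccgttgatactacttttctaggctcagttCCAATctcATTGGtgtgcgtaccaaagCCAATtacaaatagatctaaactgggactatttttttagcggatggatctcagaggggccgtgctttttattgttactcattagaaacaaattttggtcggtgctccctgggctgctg
COL4A1 to COL4A2: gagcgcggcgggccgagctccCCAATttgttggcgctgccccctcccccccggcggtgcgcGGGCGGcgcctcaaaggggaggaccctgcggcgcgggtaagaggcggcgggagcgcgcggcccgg
The stretches held 51.2% (COL4A5) and 44% (COL4A6) G and C, and the interval between COL4A1 and COL4A2 held 80.2%. Both CCAAT matches of COL4A5 lie in the shared bases and recur in the COL4A6 stretch on its own strand.

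Of the 10 FACIT chains, 4 passed the filter and 3 fell with the block, where 7.06% of all genes fell. COL12A1, the most abundant of them and a fibril surface component of tendon and stroma, had 22.9 and 29.4 CPM in core samples against 24.2 and 20.5 CPM in invasion samples. The zones overlapped, the replicates went opposite ways (0.077 within replicate 1 and -0.52 within replicate 2 on the log2 scale), and no change passed (log2 fold change -0.22, standard error 0.202, adjusted p = 0.541 in edgeR, and adjusted p = 0.358 with the block). COL16A1, which is found near fibrils and basement zones, had 301, 69, 133 and 33 counts and fell with the block (edgeR log2 fold change -1.05, standard error 0.252, adjusted p = 0.0107). Of the chains of cartilage collagen IX, COL9A2 had 174, 61, 94 and 22 counts and COL9A3 had 104, 77, 33 and 16. Both fell with the block (edgeR log2 fold change -1.02, standard error 0.277, adjusted p = 0.0185 for COL9A2 and -1.80, standard error 0.321, adjusted p = 0.00249 for COL9A3). Their partner COL9A1 had 0 counts in all libraries. COL16A1 and COL9A2 were close to the 2-fold threshold, and DESeq2 with the block called neither, while limma voom with the block called COL16A1 alone of these.

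Neither tested transmembrane chain was called lower in the invasion zone. COL13A1 (chromosome 10, 69801880 to 69964275, plus strand), a membrane collagen of cell junctions and focal adhesions, had 47.8 and 72.7 CPM in core samples against 62.0 and 76.7 CPM in invasion samples, with the zones overlapping and no call (log2 fold change 0.21, standard error 0.245, adjusted p = 0.650 in edgeR, and adjusted p = 0.111 with the block). Without core replicate 1 its log2 fold change was -0.057, against 0.21 with all libraries. COL17A1 (chromosome 10, 104031286 to 104085880, minus strand), the membrane anchor of hemidesmosomes also known as BP180, had 10.6 and 13.4 CPM in core samples against 18.1 and 17.0 CPM in invasion samples. Its zones did not overlap, with the invasion zone the higher, and with the block the increase passed the adjusted threshold without reaching 2-fold (edgeR log2 fold change 0.57, standard error 0.163, adjusted p = 0.0219). It missed the threshold without the block (adjusted p = 0.191). COL23A1 had 2, 0, 4 and 0 counts, and COL25A1 had 1, 0, 2 and 0. The share of collagen counts from this class was 0.634% and 1.37% in the core and 1.92% and 4.57% in the invasion zone. Its summed CPM changed less, at 58.5 and 86.1 in the core and 80.3 and 93.7 in the invasion zone. The collagen total, by which the share is divided, was lower in the invasion zone.

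The other classes were of middle or low level. COL8A1, a short chain of the hexagonal networks under endothelia, had 154 and 136 CPM in core samples against 107 and 62.3 CPM in invasion samples and passed the adjusted threshold with the block without reaching 2-fold (edgeR log2 fold change -0.81, standard error 0.132, adjusted p = 0.00157), while its partner COL8A2 had 4, 0, 0 and 0 counts. COL18A1, a basement membrane multiplexin and the precursor of endostatin, had 64.7 and 41.8 CPM in core samples against 37.4 and 20.5 CPM in invasion samples and likewise passed without reaching 2-fold (edgeR log2 fold change -0.89, standard error 0.109, adjusted p = 3.76e-04). Of its 8464 exonic bases, 1563 overlap SLC19A1 on the opposite strand, and the strand setting of the counting is not stated, so reads of the 2 genes cannot be told apart there. COL15A1, the related multiplexin, had 55, 27, 21 and 17 counts and did not pass (adjusted p = 0.125 with the block, edgeR). COL7A1 (chromosome 3, 48564073 to 48595329, minus strand), the chain of the anchoring fibrils below epithelia, had 11.5 and 11.9 CPM in core samples against 4.98 and 1.77 CPM in invasion samples. It fell with the block (edgeR log2 fold change -1.74, standard error 0.317, adjusted p = 0.00281), with a log2 ratio of -1.21 within replicate 1 and -2.75 within replicate 2.

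**Figure D4:**
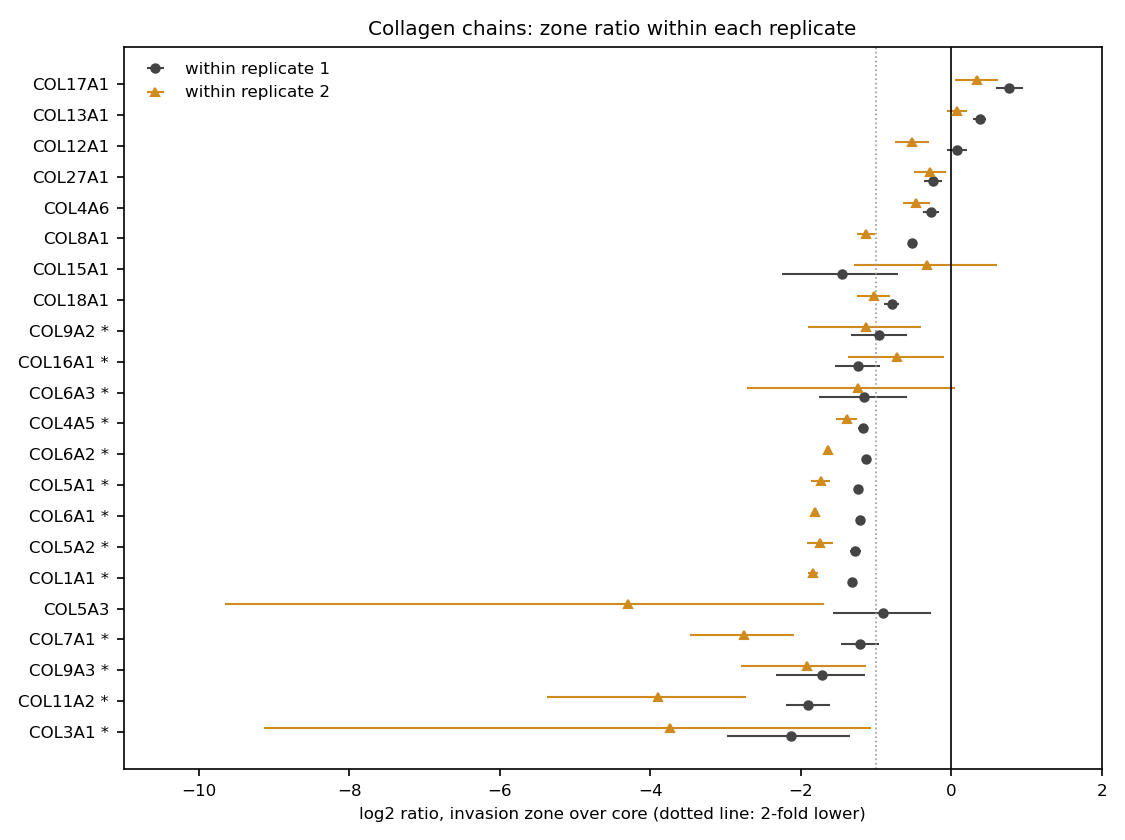
Log2 ratio of invasion zone over core within replicate 1 (grey circles) and within replicate 2 (orange triangles) for the 22 collagen chains with counts in all 4 libraries among those tested, ordered by edgeR log2 fold change, with exact 95% counting intervals as bars. Asterisks mark the 13 chains called with the replicate block. The ratios run from 0.77 (COL17A1, replicate 1) to -4.30 (COL5A3, replicate 2, from 1 count). Among chains at least 2-fold lower by the edgeR log2 fold change without the block, only COL5A3 has no asterisk.

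Within replicate 2 most chains had the lower ratio of invasion zone to core. The log2 ratio was the lower one in replicate 2 for 20 of the 22 tested chains with counts in all libraries. With 0.5 CPM added to each value, so that every gene has a ratio, it was lower in replicate 2 for 20 of the 23 tested chains and 57.5% of all genes tested. For COL1A1 the gap was outside the counting intervals, with -1.31 (-1.34 to -1.29) and -1.84 (-1.90 to -1.78). Levels also differed between replicates within a zone. COL6A1, COL6A2, COL1A1, COL5A1, COL5A2 and COL4A5 were each higher in replicate 1 than in replicate 2 in both zones. Replicate 2 had the shallower libraries, and the part of depth in these differences was not tested.

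The 21 chains under the filter were told apart as low. Of these, 3 (COL6A5, COL9A1 and COL14A1) had 0 counts in every library, 14 had 1 to 10 counts over the 4 libraries together, and 4 (COL4A3, COL4A4, COL10A1 and COL19A1) had up to 27. The highest level of any of them in a library was 0.596 CPM, for COL4A3 in core replicate 2. COL11A1 passed with 26 counts in total while COL4A3, with 27, did not, because the filter reads levels in 2 libraries. COL19A1 had 4, 0, 13 and 3 counts, COL21A1 had 2, 2, 5 and 0 and COL10A1 had 3, 3, 5 and 3. COL28A1, COL20A1, COL26A1 and COL22A1 had 1 to 5 counts in total. With this filter in place their zones were not compared.

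Some collagen genes are neighbours. COL18A1, COL6A1 and COL6A2 follow each other on chromosome 21 over less than 1 Mb, and all were lower in both invasion zone libraries. COL3A1 and COL5A2 lie tail to tail on chromosome 2, 19151 bases apart, and both fell with the block, although their core means were 1.55 and 112 CPM. With the block, 13 of the 23 tested chains and 7.06% of all genes fell. Of the head-to-head pair COL4A5 and COL4A6, only COL4A5 did. Whether neighbours moved together more than other chains was not tested.

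Promoter windows (250 bases before to 50 after the start, RefSeq, GRCh38.p14) were at hand for 32 of the 44 chains. COL1A1, COL1A2, COL2A1, COL3A1, COL5A2, COL6A1, COL6A5, COL8A1, COL9A3, COL14A1, COL20A1 and COL22A1 are therefore not included. The 250 upstream bases of COL6A2 (chr21:46097862-46098111, plus strand) and COL5A1 (chr9:134641553-134641802, plus strand) are shown as chains that fell, and those of COL17A1 (chr10:104085881-104086130, minus strand) as the chain with higher values in the invasion zone, with capitals for the same 4 motifs on either strand.
COL6A2: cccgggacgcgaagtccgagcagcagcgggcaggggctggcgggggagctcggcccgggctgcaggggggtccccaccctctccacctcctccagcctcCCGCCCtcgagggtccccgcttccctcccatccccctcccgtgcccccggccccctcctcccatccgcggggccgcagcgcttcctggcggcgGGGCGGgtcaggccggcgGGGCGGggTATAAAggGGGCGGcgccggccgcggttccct
COL5A1: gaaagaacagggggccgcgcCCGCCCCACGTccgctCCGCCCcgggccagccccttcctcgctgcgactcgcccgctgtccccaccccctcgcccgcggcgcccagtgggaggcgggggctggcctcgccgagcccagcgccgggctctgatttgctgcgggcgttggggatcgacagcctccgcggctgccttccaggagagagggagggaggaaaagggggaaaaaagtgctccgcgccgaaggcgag
COL17A1: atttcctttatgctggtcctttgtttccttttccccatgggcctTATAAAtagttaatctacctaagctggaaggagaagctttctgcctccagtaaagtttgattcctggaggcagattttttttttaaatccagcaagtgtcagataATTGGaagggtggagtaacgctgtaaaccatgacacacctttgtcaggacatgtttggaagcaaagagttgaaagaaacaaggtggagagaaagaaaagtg
The COL6A2 stretch holds 4 matches to GGGCGG and 1 to TATAAA, and its G and C content is 79.6%. The COL5A1 stretch holds 2 matches to GGGCGG and 1 to ACGTG. The COL17A1 stretch holds none to GGGCGG, 1 to TATAAA and 1 to CCAAT, at 40.4% G and C. Over windows of the full 300 bases, GGGCGG stood in 21 of the 32 chains and in 48.3% of all genes with a window, CCAAT in 12 and 39.7%, TATAAA in 7 and 14%, and ACGTG in 6 and 24.9%. GGGCGG stood in 13 of the 17 tested chains with a window, in 6 of the 8 called with the block and in 8 of the 15 under the filter. The median G and C content was 63.7% for collagen windows and 58.7% for all windows, and its part in these matches was not tested. COL4A5 and COL6A3, which fell, had no such match. These are matches of letters and not sites of binding.

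The genes that process, bind and degrade collagen were examined beside the chains, from lists chosen by role. Among 30 tested of 35 genes for maturation and secretion, 6 fell and 0 rose with the block (edgeR), against the same 7.06% and 3.41% of all genes, and the median log2 fold change was -0.33. P4HA1, a catalytic subunit of prolyl hydroxylase, had 255 and 241 CPM in core samples against 80.5 and 56.1 CPM in invasion samples (edgeR with the block, log2 fold change -1.87, standard error 0.109, adjusted p = 3.81e-05). P4HA2, the alternative catalytic subunit, fell by 1.48 and PLOD1, a lysyl hydroxylase, fell by 1.62 on the log2 scale. BMP1, the C-propeptide protease, fell by 1.45, and PCOLCE, which enhances it, fell by 1.42. LOXL4, a cross-linking oxidase with 5.75 and 2.65 CPM in core samples against 3.06 and 1.01 CPM in invasion samples, fell by 1.05 with overlapping zones. With the block the adjusted p of these 6 was 3.35e-05 to 0.0210 in edgeR. In edgeR without the block, none of these passed (adjusted p = 0.128 to 0.385). DESeq2 without the block called 5 of them lower, all but LOXL4, against 3.44% of all genes. The collagen chaperone SERPINH1, named here after its value was seen, had 152 and 165 CPM in core samples against 126 and 150.1 CPM in invasion samples and did not pass (adjusted p = 0.0755 with the block, edgeR).

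Among 8 tested of 10 collagen receptors, 4 fell and 0 rose with the block (all genes 7.06% and 3.41%). ITGA11, the integrin subunit for fibrillar collagen, had 580.2 and 335 CPM in core samples against 283 and 68.3 CPM in invasion samples (edgeR with the block, log2 fold change -1.63, standard error 0.234, adjusted p = 8.31e-04). ITGA10, another collagen-binding integrin subunit, had 19.7 and 21.6 CPM in core samples against 11.1 and 3.11 CPM in invasion samples. The receptor kinase DDR1 had 196 and 126 CPM in core samples against 87.7 and 31.4 CPM in invasion samples, and MRC2, the receptor that takes up collagen for degradation, had 696 and 455 CPM in core samples against 307 and 137 CPM in invasion samples. The zones did not overlap for any of these 4, whose adjusted p in edgeR was 9.04e-05 to 0.00864 with the block and 0.156 to 0.272 without it. ITGA2, a collagen-binding integrin subunit named here after its values were seen, had 372 and 599 CPM in core samples against 591 and 713 CPM in invasion samples, with overlapping zones, and with the block passed the adjusted threshold as higher without reaching 2-fold (edgeR log2 fold change 0.46, standard error 0.0997, adjusted p = 0.00654). The shared β1 subunit ITGB1, likewise named, had 1120.0 and 1141 CPM in core samples against 1213 and 1207 CPM in invasion samples and did not pass (adjusted p = 0.304 with the block, edgeR). Among 11 tested of 13 genes of breakdown and its inhibitors, 3 fell and 0 rose with the block (all genes 7.06% and 3.41%). MMP2, a gelatinase, had 1258 and 749 CPM in core samples against 440.5 and 185 CPM in invasion samples (edgeR with the block, log2 fold change -1.76, standard error 0.115, adjusted p = 5.33e-05). MMP1, an interstitial collagenase, and MMP15, a membrane-bound metalloproteinase, also fell, from low levels of 2.51 and 11.6 CPM in the core. The adjusted p of these 3 in edgeR was 5.33e-05 to 0.0232 with the block and 0.145 to 0.248 without it.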

How the data were processed

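Bulk RNA was sequenced from 2 core and 2 invasion zone samples, with cDNA made from 1 to 10 ng of total RNA by a low-input kit. The counting intervals take no account of noise from that step. The deposited table holds unnormalised counts per gene. Before deposit, Bowtie took out ribosomal reads, STAR aligned the rest to hg38 and HTSeq-count assigned them to genes. The sources used here give no annotation release or strand setting. Of 56306 rows, 2 repeated rows without counts were left out. In R 4.3.3, counts were scaled by TMM (factors 0.985 to 1.01), filtered with filterByExpr and tested with edgeR 4.0.16 (glmQLFit, glmQLFTest, Benjamini-Hochberg over all genes tested). Standard errors were derived from the F statistic. DESeq2 1.42.0 and limma 3.58.1 (voom) served as alternatives, with each library left out, other scalings and filters. The edgeR, limma and DESeq2 fits were also run on simulated counts with known changes. There every gene had the same spread, and any replicate shift was equal in both zones. In these data the zone ratios of many genes differed between replicates, so the simulation does not show how reliable the calls are here.

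The members and lists were chosen with earlier results of these data known. Values in every library are given for chains called with or without the block, for the 12 chains of highest mean CPM and for the trimer pairs, with the other chains by their counts, and context genes are those called, up to 6 a list. Both zones were dissected from one spheroid in turn, which was read as pairing the libraries of a replicate number, although no source says so outright, and block values are given beside the results. Across genes, deviations from zone means correlated at 0.584 between the core and invasion zone libraries of replicate 1. With 2 libraries a zone, the deviations of replicate 2 mirror these and add nothing. Both replicate 2 libraries were also the shallower ones, so pairing and other differences shared by a replicate's libraries cannot be told apart. Libraries of a zone differed by more than sampling noise. Positions and lengths of canonical transcripts came from GENCODE release 44 and promoter sequences from RefSeq. No protein sequences were analysed here. Figures were drawn with matplotlib 3.10.9.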

Additional observations from a re-analysis of the deposited data

How the results depend on the processing

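Without the replicate block, edgeR called 0 genes higher and 0 lower over all genes, 0 collagen chains and 0 context genes (maturation, receptors and breakdown, all lists together), and these counts stayed at 0 with RLE or upper-quartile factors, with at least 10 counts in every library, with limma voom without the block and with no fold minimum. In the settings that follow, the numbers are the higher and the lower genes over the whole table, then the chains and the context genes that were lower, and no chain or context gene was called higher in any of them. With the replicate block, which compares same-numbered libraries, there were 530 and 1097 genes, 13 chains and 13 context genes. With limma voom and the replicate block there were 576 and 1088 genes, 12 chains and 11 context genes, and with DESeq2 and the replicate block 428 and 750 genes, 10 chains and 10 context genes. With DESeq2 without the block there were 353 and 534 genes, 9 chains and 9 context genes. At an unadjusted p with the 2-fold minimum there were 454 and 909 genes, 12 chains and 10 context genes, and with no filter beyond 1 count 427 and 846 genes, 10 chains and 10 context genes, where the cause was not tested. With 1 library left out the numbers ranged from 13 to 632 and from 125 to 1137 genes, from 0 to 12 chains and from 5 to 15 context genes.

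The median log2 fold change of the tested chains was -1.14, it was -1.05 with at least 10 counts in every library, where fewer chains enter it, and it ranged from -1.55 to -0.91 with 1 library left out. By class these ranges were -2.14 to -1.09 for fibrillar chains, -1.94 to -0.88 for collagen VI, -1.05 to -0.62 for basement membrane chains, -1.26 to -0.69 for FACIT chains, -1.22 to -0.44 for COL8A1 and 0.17 to 0.64 for the 2 transmembrane chains. The sign of the log2 fold change turned for 2 chains. COL13A1 went from 0.21 to -0.057 without core replicate 1 (-0.057 to 0.54 over the libraries left out). COL11A1, with 26 counts in total, went from -0.057 to 0.17 with the block, 0.047 and 0.66 in DESeq2 without and with the block, 0.47 and 0.42 in limma voom without and with the block, and 1.22 without invasion zone replicate 1 (-3.74 to 1.22 over the libraries left out). The summed collagen CPM kept its direction under every scaling, without COL6A1 and with each library left out. Depth limits the chains with few counts, for which 1 count is worth 0.0266 to 0.0848 CPM.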
